A study of Mus musculus with 16 samples.

Results

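The genes described here encode the proton pumps of the kidney and the proteins that mark intercalated cells, the acid- and base-secreting cells of the collecting duct and connecting tubule. They were taken by name as 36 genes, each read through its probe set of highest mean over all arrays; 35 of the 36 had a probe set with a single gene name among the 22180 genes measured, and Atp6v0c, the ring subunit of the pump, has no expression value here and enters only the promoter windows. Of the 35, 21 encode subunits of the vacuolar proton pump (V-ATPase), 2 are H,K-ATPases, and 12 are transcription factors, transporters and receptors of intercalated cells. Expression was measured in kidney cortex of 3-month-old mice on 16 Affymetrix arrays, 4 per genotype, as log2 values after robust multi-array averaging. The groups were Vhl mutants (VhlF/FKsp-Cre), Pbrm1 mutants (Pbrm1F/FKsp-Cre), double mutants (VhlF/FPbrm1F/FKsp-Cre) and wild type, all on a normal diet. Cre was driven by the promoter of Ksp-cadherin (Cdh16), which is active in tubular epithelium, so cells without Cre contribute unrecombined RNA to every mutant sample. The labels give C57BL/6 as the strain of the wild-type mice and a mixed background of C57BL/6, BALB/c and 129 for all mutants, and they name no Cre in wild type. Genotype, strain and Cre therefore cannot be told apart in any comparison with wild type.

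The V-ATPase couples ATP hydrolysis by its cytosolic V1 sector to proton transport through its membrane V0 sector. Most cells use it to acidify lysosomes and endosomes with ubiquitous subunits. Intercalated cells also place it at the plasma membrane, with kidney-restricted isoforms of several subunits. Type A cells secrete acid at the apical side and return bicarbonate to the blood through the anion exchanger Slc4a1, and type B cells secrete bicarbonate through Slc26a4 (pendrin). Foxi1 is the transcription factor that intercalated cells need to form in the mouse.

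The description of each array carries a number, with 2 numbers per group, which may mark animals. Replicates 1 and 2 share a number in Vhl mutants, Pbrm1 mutants and wild type, as do replicates 3 and 4; in double mutants replicates 1 to 3 share a number and replicate 4 has its own. In Vhl mutants, Pbrm1 mutants and wild type, each number has an array marked L and an array marked R. The labels do not explain these marks. A group may thus hold 2 animals and not 4, and every n given here counts arrays. The spread behind each p-value is that between arrays, and part of it may lie within animals or be technical. Double mutant replicates 2 and 3 carry the same description, in number and in the letter R. Replicate 1 carries L and replicate 4 R, so the number of replicate 4 has no L. Over the 22180 genes replicate 3 correlated at 0.9945 with replicate 4 and at 0.9923 with replicate 2, while replicates 1 and 2 correlated at 0.9954. Whether the number of replicate 3 is right cannot be told from the labels, and it was used as given unless stated. Vhl mutants carry higher numbers than the other 3 groups, and a batch, if there was one, cannot be told apart from that genotype. The probe sets of Vhl (6.28 ± 0.02, 6.26 ± 0.04, 6.22 ± 0.20 and 6.34 ± 0.15, mean ± SD of log2 values, n = 4 each, in Vhl, Pbrm1 and double mutants and wild type) and of Pbrm1 (8.13 ± 0.14, 8.19 ± 0.04, 8.13 ± 0.08 and 8.19 ± 0.05) did not separate the groups; which exons they cover is not given, so they do not check the labels. Every member averaged above 3.72 in each group, the highest lower quartile of any array, which was taken as the background level. The 12 proximal tubule genes that check the cortex label lay between 10.38 and 12.98 in all groups. With 4 arrays a group, a member's log2 fold change had a standard error of 0.08 at the median.

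Many of these genes were lower in double mutants than in wild type, fewer in Vhl mutants and few in Pbrm1 mutants. In double mutants against wild type, 18 of 35 members fell and none rose (limma, Benjamini-Hochberg adjusted p under 0.05 over all genes), or 51.4%. Of all genes 12.2% were called, 5.56% lower and 6.64% higher. In Vhl mutants, 9 of 35 fell and none rose, or 25.7%. Of all genes 3.84% were called, 1.79% lower and 2.04% higher. In Pbrm1 mutants 2 fell and none rose, or 5.71%. Of all genes 4.04% were called, 2.45% lower and 1.59% higher. The median log2 fold change over the members was -0.15 for Vhl, -0.10 for Pbrm1 and -0.25 for double mutants, against -0.01, -0.01 and -0.02 over all genes. The 4 mutant arrays lay below the 4 wild-type arrays for 16 members with Vhl mutants (5.71% of all genes), 8 with Pbrm1 mutants (6.85%) and 22 with double mutants (8.53%). The 3 comparisons share the wild-type arrays. In bulk tissue, fewer cells of a type and less RNA per cell cannot be told apart.

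All 18 members that fell in double mutants had their lowest group mean there. For 14 of them the means ran in the order double mutant, Vhl mutant, Pbrm1 mutant, wild type, from low to high. In 17 of the 18 the wild-type mean was the highest, the exception being Atp6v1b2, with its highest mean in Pbrm1 mutants.

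**Figure D1:**
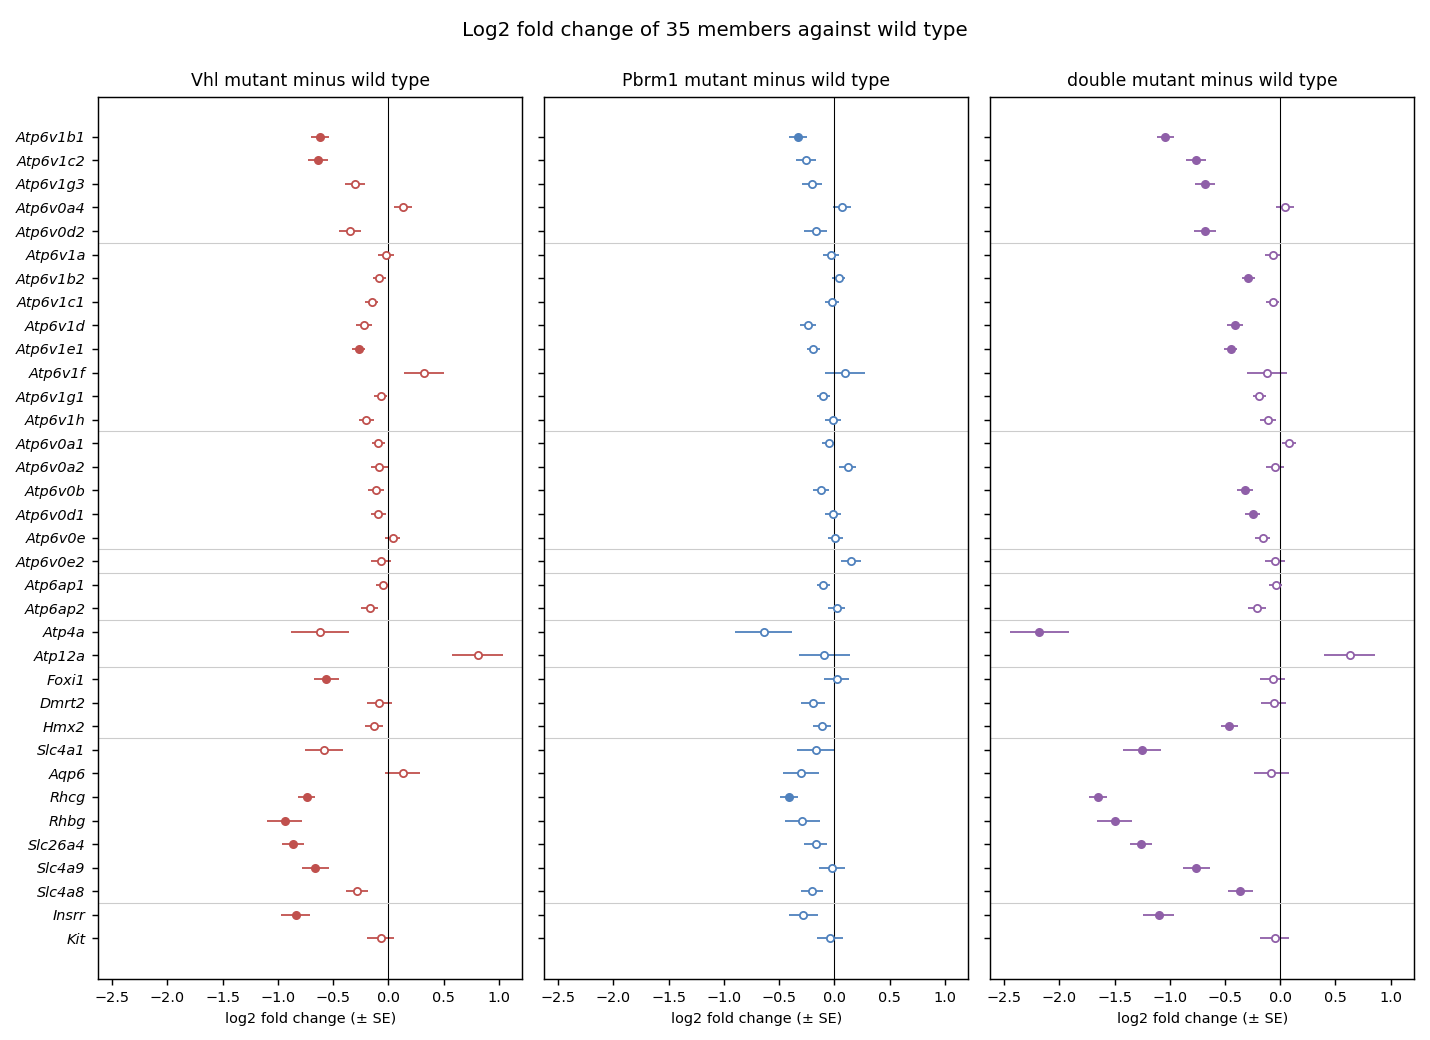
Log2 fold change against wild type (x axis, ± SE from the limma fit) of the 35 measured members (y axis), grouped by role from kidney-restricted V-ATPase subunits at the top to receptors at the bottom, in Vhl mutants, Pbrm1 mutants and double mutants. Filled points were called at an adjusted p under 0.05: 9, 2 and 18 members, every one of them lower; Atp4a lay farthest to the left in double mutants, at -2.18.

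Among the 5 kidney-restricted V-ATPase subunits, 4 fell in double mutants, 2 in Vhl mutants and 1 in Pbrm1 mutants, and 1, Atp6v0a4, passed in none. Atp6v1b1, the B1 subunit of the V1 sector, whose loss in humans causes distal renal tubular acidosis with deafness, measured 8.66, 8.93, 8.53 and 8.60 in Vhl mutants, 9.06, 8.88, 8.90 and 9.03 in Pbrm1 mutants, 8.27, 8.24, 8.33 and 8.20 in double mutants and 9.35, 9.24, 9.38 and 9.21 in wild type. The double mutant and wild-type arrays stood apart from all others, and no mutant array reached the wild-type range. Atp6v1b1 was at 65.2% of the wild-type level in Vhl mutants (log2 fold change -0.62 ± 0.08 SE, limma adjusted p = 8.4e-05, n = 4 each here and below), at 79.6% in Pbrm1 mutants (-0.33 ± 0.08, adjusted p = 0.019) and at 48.7% in double mutants (-1.04 ± 0.08, adjusted p = 1.6e-08). Its call in Pbrm1 mutants was lost without wild-type replicate 1 or 3 (adjusted p = 0.058 and 0.055) and without Pbrm1 mutant replicate 2 or 3 (adjusted p = 0.059 and 0.062). With arrays averaged per description number that call was lost as well (limma adjusted p = 0.12).

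Atp6v1c2, the C2 subunit, measured 6.20, 6.28, 6.07 and 6.40 in Vhl mutants, 6.56, 6.81, 6.56 and 6.53 in Pbrm1 mutants, 6.22, 6.17, 6.03 and 6.04 in double mutants and 6.84, 6.82, 7.01 and 6.85 in wild type. Every mutant array was below every wild-type array, and the Vhl and double mutant arrays overlapped. Atp6v1c2 fell by 0.64 ± 0.09 (SE) in Vhl mutants on the log2 scale (adjusted p = 0.00027, limma) and by 0.76 ± 0.09 in double mutants (adjusted p = 7.7e-06); in Pbrm1 mutants its log2 fold change was -0.26 ± 0.09 (adjusted p = 0.13). Atp6v1g3, the G3 subunit of the stalk, fell to a mean of 7.47 ± 0.12 (SD) in double mutants, against 8.14 ± 0.14 in wild type (log2 fold change -0.68 ± 0.09 SE, adjusted p = 2.8e-05). Its 4 Vhl mutant arrays, at 7.79 to 7.88, were below the wild-type arrays, at 7.96 to 8.29, without a call (-0.30 ± 0.09, adjusted p = 0.075). Atp6v0d2, the d2 subunit of the V0 sector, which osteoclasts and macrophages also use, fell to 7.17 ± 0.07 in double mutants, against 7.84 ± 0.10 in wild type (-0.68 ± 0.10, adjusted p = 0.0001). In Vhl mutants Atp6v0d2 had a log2 fold change of -0.35 ± 0.10 (adjusted p = 0.055).

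Atp6v0a4, the a4 subunit that anchors the pump in the plasma membrane and whose loss in humans also causes distal renal tubular acidosis, was the restricted subunit with no call against wild type. It measured 9.64, 9.95, 9.81 and 9.97 in Vhl mutants, 9.80, 9.68, 9.88 and 9.79 in Pbrm1 mutants, 9.87, 9.81, 9.69 and 9.68 in double mutants and 9.71, 9.54, 9.76 and 9.86 in wild type, and all groups overlapped. In double mutants its log2 fold change was 0.04 (95% interval -0.13 to 0.21), in Vhl mutants 0.13 (-0.04 to 0.30) and in Pbrm1 mutants 0.07 (-0.10 to 0.24). The median over the 5 restricted subunits was -0.35 for Vhl, -0.20 for Pbrm1 and -0.68 for double mutants.

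**Figure D2:**
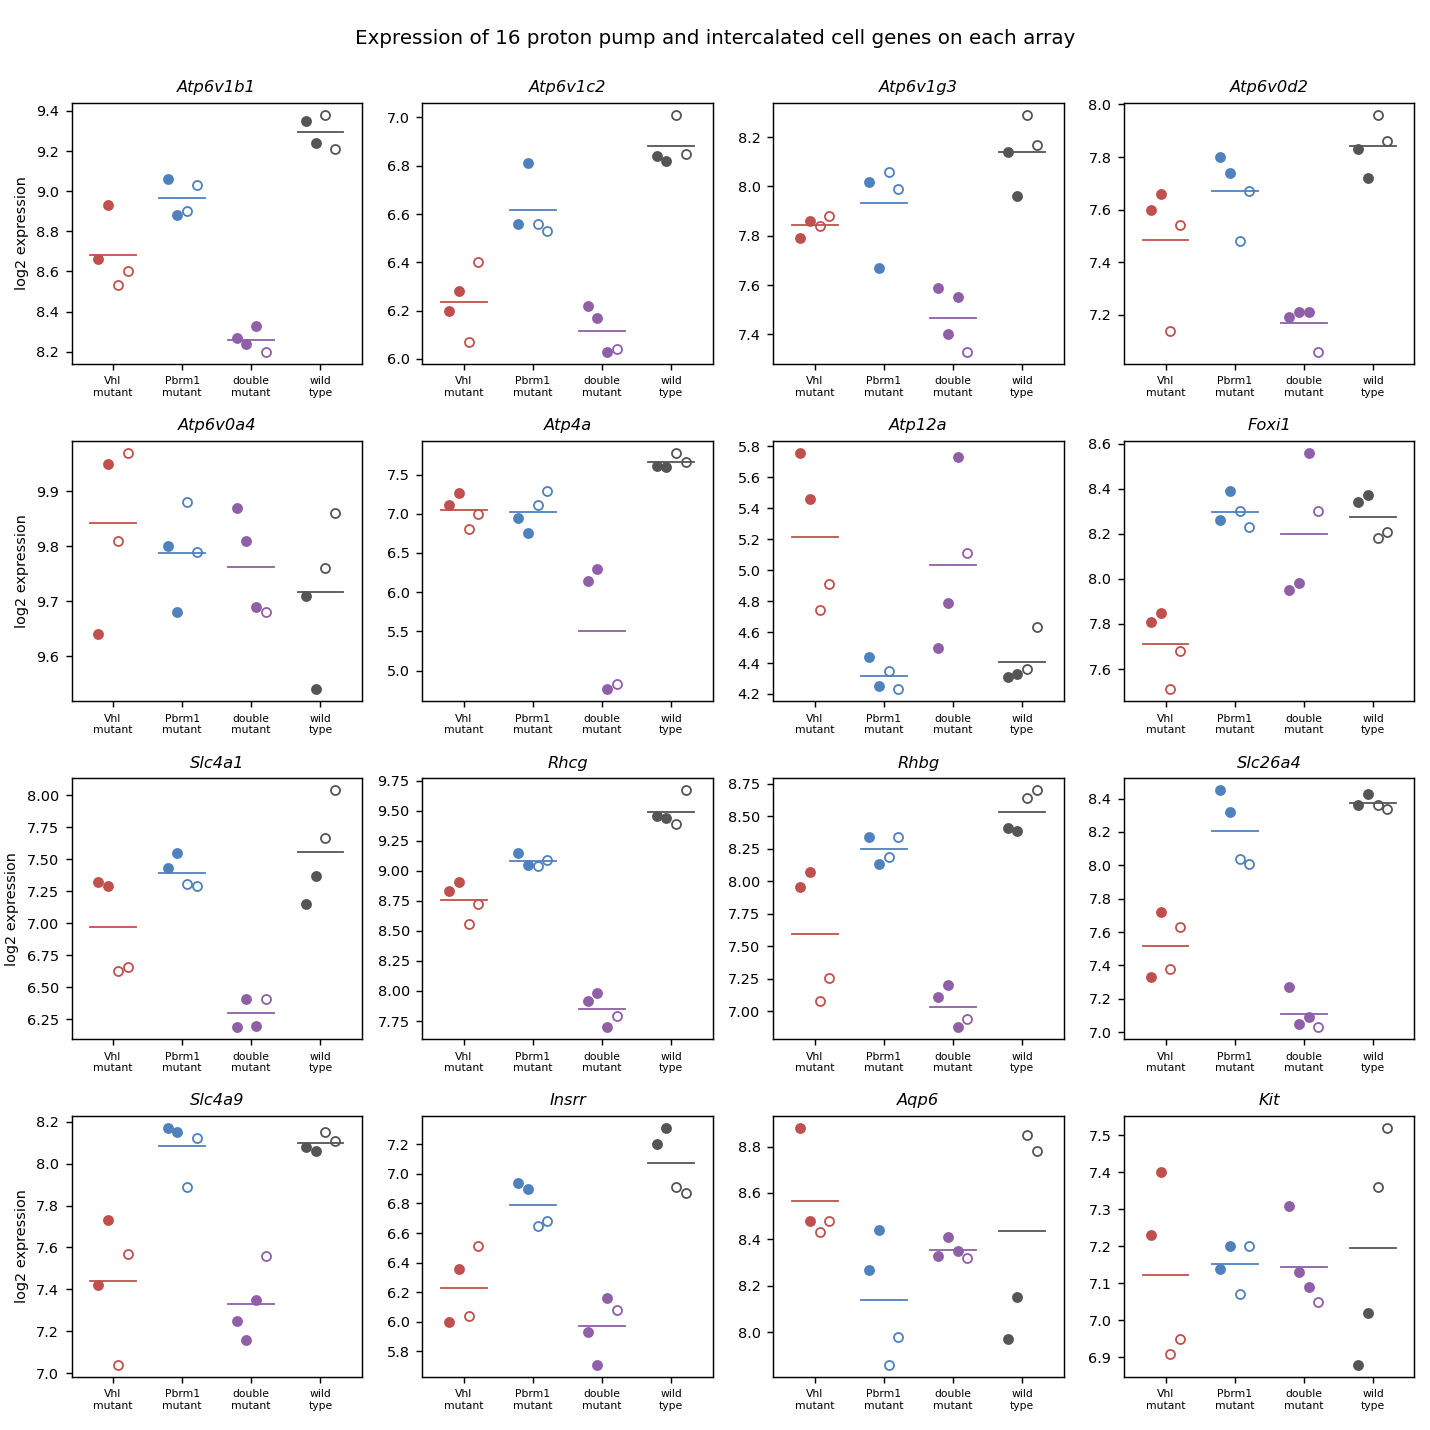
Log2 expression (y axis, a different range in each panel) of 16 members on each array, with the group mean as a line, in Vhl mutants, Pbrm1 mutants, double mutants and wild type. Within a group, filled and open points are arrays of different description numbers. Double mutants lie below wild type without overlap for Atp6v1b1, Atp6v1c2, Atp6v1g3, Atp6v0d2, Atp4a, Slc4a1, Rhcg, Rhbg, Slc26a4, Slc4a9 and Insrr, and the groups overlap for Atp6v0a4, Aqp6 and Kit.

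Ubiquitous subunits had smaller median changes than the restricted ones. Of the 13 measured ubiquitous V1 and V0 subunits, 5 fell in double mutants, 1 in Vhl mutants and none in Pbrm1 mutants, with median log2 fold changes of -0.16, -0.09 and -0.02. Atp6v1e1, the E1 subunit of the peripheral stalk, measured 9.81, 9.99, 9.87 and 9.93 in Vhl mutants, 9.98, 9.92, 10.00 and 10.02 in Pbrm1 mutants, 9.63, 9.63, 9.80 and 9.80 in double mutants and 10.16, 10.22, 10.18 and 10.10 in wild type. All 12 mutant arrays were below wild type for Atp6v1e1, which fell by 0.45 ± 0.06 in double mutants (adjusted p = 2e-05) and by 0.27 ± 0.06 in Vhl mutants (adjusted p = 0.011) on the log2 scale. With arrays averaged per description number the call in Vhl mutants was lost (adjusted p = 0.12). In double mutants alone, calls were made for Atp6v1d of the central stalk (log2 fold change -0.41 ± 0.07, adjusted p = 0.00042), Atp6v0b of the proton-carrying ring (-0.32 ± 0.07, adjusted p = 0.0025), Atp6v1b2, the ubiquitous B2 subunit (-0.29 ± 0.06, adjusted p = 0.0017), and Atp6v0d1, the ubiquitous d1 subunit (-0.25 ± 0.07, adjusted p = 0.017). The call of Atp6v0d1 was lost without double mutant replicate 4 (adjusted p = 0.094), and that of Atp6v0b without wild-type replicates 1 and 2 (adjusted p = 0.079).

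Atp6v1a, the catalytic A subunit, was called in no comparison with wild type: it averaged 10.63 ± 0.04 in Vhl mutants, 10.62 ± 0.12 in Pbrm1 mutants, 10.58 ± 0.14 in double mutants and 10.65 ± 0.05 in wild type (SD, n = 4 each), with a log2 fold change of -0.07 in double mutants (95% interval -0.21 to 0.08). Atp6v1c1, Atp6v1f, Atp6v1g1 and Atp6v1h of the V1 sector and Atp6v0a1, Atp6v0a2 and Atp6v0e of the V0 sector passed in none of the 3 comparisons with wild type, with log2 fold changes from -0.20 to 0.32. Atp6v0e2, a second e subunit, and the accessory subunits Atp6ap1 and Atp6ap2 (the prorenin receptor) did not pass either; Atp6ap2 had a log2 fold change of -0.21 ± 0.08 in double mutants (adjusted p = 0.11). Of the other genes of the pathway, 0 of 3 further V-ATPase isoforms and 1 of 10 assembly factors were called in double mutants (Wdr7, lower, log2 fold change -0.23), and of 20 lysosomal genes measured, 2 fell and 1 rose, with a median of -0.06.

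For 5 subunits the array measured both a restricted and a ubiquitous isoform, and the log2 difference between the 2 on the same array was compared with wild type (exact permutation tests, two-sided, 15 in all; 4 against 4 arrays allow no p below 0.029). The B pair (Atp6v1b1 over Atp6v1b2) had differences 0.54, 0.37 and 0.74 below wild type in Vhl, Pbrm1 and double mutants, with all 4 arrays of each mutant group below all wild-type arrays (p = 0.029 each, exact). Atp6v1b2 has another probe set, of lower mean, which the pair did not use. That probe set measured 6.56, 6.68, 6.99 and 6.50 in double mutants and 7.22, 7.08, 7.08 and 7.20 in wild type. In the C pair (Atp6v1c2 over Atp6v1c1) the change was -0.49 in Vhl mutants and -0.69 in double mutants (p = 0.029 each, exact), and -0.24 in Pbrm1 mutants (p = 0.11, exact). The G pair (Atp6v1g3 over Atp6v1g1) changed by -0.23 in Vhl mutants and -0.49 in double mutants (p = 0.029 each, exact), and by -0.10 in Pbrm1 mutants (p = 0.54, exact). The d pair (Atp6v0d2 over Atp6v0d1) reached the smallest p in double mutants alone, at -0.43 (p = 0.029, exact), with -0.26 in Vhl mutants and -0.16 in Pbrm1 mutants (p = 0.086 and 0.11, exact). The a pair (Atp6v0a4 over Atp6v0a1) changed by 0.21, 0.12 and -0.04 in Vhl, Pbrm1 and double mutants (p = 0.2, 0.37 and 0.74, exact). After adjustment over the 15 tests the 8 smallest p-values became 0.054, so none passed 0.05. These tests took the 4 arrays of a group as independent and left the description numbers out. If the numbers mark animals, the p-values are too small.

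**Figure D3:**
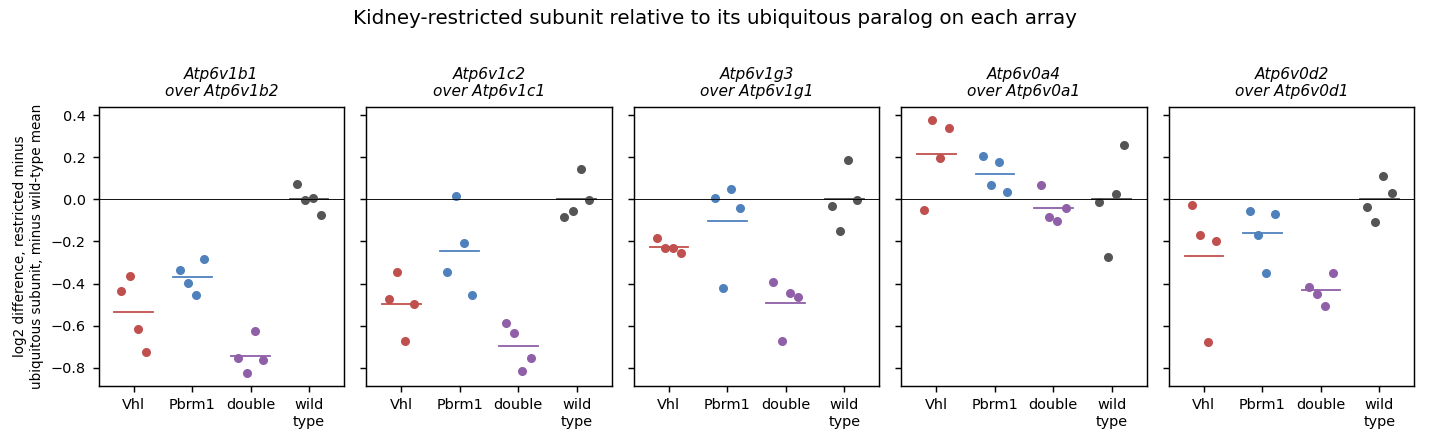
Log2 difference between the kidney-restricted subunit and its ubiquitous paralog on each array (y axis, set to 0 at the wild-type mean), for 5 pairs, in Vhl mutants, Pbrm1 mutants, double mutants and wild type; lines are group means. In double mutants the B, C, G and d pairs average 0.74, 0.69, 0.49 and 0.43 below wild type, and the a pair 0.04 below.

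Promoter windows of 4 members are shown because their levels went different ways. The restricted subunit Atp6v1b1 and the transporter Rhcg were called lower in all mutant groups. Both calls in Pbrm1 mutants were lost with arrays averaged per description number. The restricted subunit Atp6v0a4 and the ubiquitous Atp6v1a were called in none. Each window is RefSeq sequence of GRCm38.p6 from 250 bases before to 50 bases after the annotated start, 5′ to 3′ on the gene's strand; 25 of the 36 members have one. Capitals mark the forkhead motif GTAAACA (or TGTTTAC, its other strand) and the palindrome TCACGTGA, an E-box common in promoters of lysosomal genes. The windows lie at chr6:83742767-83743066 (plus strand, Atp6v1b1), chr6:38124537-38124836 (minus, Atp6v0a4), chr7:79617608-79617907 (minus, Rhcg) and chr16:44139210-44139509 (minus, Atp6v1a). The Atp6v1a window lies wholly inside the annotated gene (chr16:44085402-44139702), so its start is not the 5′ end of the gene. The same holds for the windows of Atp6v1d, Atp6v0a1 and Aqp6, which are not shown.
Atp6v1b1: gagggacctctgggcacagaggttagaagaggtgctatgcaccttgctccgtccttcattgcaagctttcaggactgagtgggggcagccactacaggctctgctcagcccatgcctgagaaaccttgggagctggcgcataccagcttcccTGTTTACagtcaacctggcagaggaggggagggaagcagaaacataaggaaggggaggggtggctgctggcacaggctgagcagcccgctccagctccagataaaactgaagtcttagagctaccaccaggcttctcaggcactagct
Atp6v0a4: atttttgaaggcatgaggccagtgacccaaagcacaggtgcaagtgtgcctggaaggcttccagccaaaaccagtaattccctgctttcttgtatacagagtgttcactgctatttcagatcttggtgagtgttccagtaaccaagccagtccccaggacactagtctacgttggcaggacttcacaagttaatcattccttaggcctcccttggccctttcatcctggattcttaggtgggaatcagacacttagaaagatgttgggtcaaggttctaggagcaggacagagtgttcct
Rhcg: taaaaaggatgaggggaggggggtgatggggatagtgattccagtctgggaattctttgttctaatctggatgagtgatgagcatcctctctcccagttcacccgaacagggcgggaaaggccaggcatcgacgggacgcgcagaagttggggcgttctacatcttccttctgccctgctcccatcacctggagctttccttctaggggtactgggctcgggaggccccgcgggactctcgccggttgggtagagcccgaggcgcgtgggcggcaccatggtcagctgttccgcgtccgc
Atp6v1a: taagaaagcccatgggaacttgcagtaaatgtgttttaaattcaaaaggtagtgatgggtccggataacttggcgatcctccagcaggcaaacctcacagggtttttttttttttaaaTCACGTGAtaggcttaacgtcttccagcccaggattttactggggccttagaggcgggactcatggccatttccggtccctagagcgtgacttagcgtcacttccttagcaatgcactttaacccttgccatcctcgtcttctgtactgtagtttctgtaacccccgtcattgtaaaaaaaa

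Atp6v0c has 3 windows and Hmx2 and Kit 2 each. A member was counted if any of its windows held the motif, while the shares over all are per window. GTAAACA on either strand was found in 1 of the 25 members with a window, Atp6v1b1, where TGTTTAC begins 98 bases before the start. It was in 3.65% of all 32851 windows of that length. TCACGTGA was found in 3 of the 25 members, all ubiquitous V-ATPase subunits (Atp6v1a, where it begins 132 bases before the start, Atp6v0d1 and Atp6v0e), and in 0.974% of all windows. The hypoxia response core, ACGTG or GCGTG on either strand, is short and common. ACGTG, which TCACGTGA contains, was in 7 members and 19.6% of all windows, and GCGTG in 12 members and 32.4% of all windows. CpG dinucleotides were counted in the first window of each gene. The windows also differed in CpG dinucleotides, with a median of 2.5 in the 4 restricted subunits that have a window (1 to 22), 20.0 in 9 ubiquitous V1 and V0 subunits, Atp6v0c among them (7 to 28), and 7.0 over all genes; Atp6v1c2, with 22, was the restricted subunit outside the low range. Atp6v0a4 had 1 CpG, Atp6v1b1 had 3 and Rhcg had 19; a relation of CpG number to the change in level was not tested.

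The gastric H,K-ATPase gene had the largest change of the set. Atp4a, its catalytic subunit, which in the kidney helps to exchange protons for potassium, measured 7.11, 7.26, 6.81 and 7.00 in Vhl mutants, 6.95, 6.76, 7.11 and 7.29 in Pbrm1 mutants, 6.14, 6.30, 4.76 and 4.83 in double mutants and 7.61, 7.60, 7.78 and 7.66 in wild type. All mutant arrays were below wild type, and the double mutant arrays split into replicates 1 and 2 and, lower, replicates 3 and 4. Atp4a was at 22.1% of the wild-type level in double mutants (log2 fold change -2.18 ± 0.27 SE, adjusted p = 8.6e-06); in Vhl mutants its log2 fold change was -0.62 ± 0.26 (adjusted p = 0.24) and in Pbrm1 mutants -0.64 ± 0.26 (adjusted p = 0.22). Atp12a, the colonic H,K-ATPase subunit, pointed the other way. It measured 5.76, 5.46, 4.74 and 4.91 in Vhl mutants, 4.44, 4.25, 4.35 and 4.23 in Pbrm1 mutants, 4.50, 4.79, 5.73 and 5.11 in double mutants and 4.31, 4.33, 4.36 and 4.63 in wild type. The Vhl mutant arrays were all above wild type, but the log2 fold change of Atp12a, 0.81 ± 0.23, did not pass (adjusted p = 0.05), nor did that in double mutants, 0.63 ± 0.23 (adjusted p = 0.084).

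Foxi1 was lower in Vhl mutants and was not called in double mutants. It measured 7.81, 7.85, 7.51 and 7.68 in Vhl mutants, 8.26, 8.39, 8.30 and 8.23 in Pbrm1 mutants, 7.95, 7.98, 8.56 and 8.30 in double mutants and 8.34, 8.37, 8.18 and 8.21 in wild type. Every Vhl mutant array was below every array of the other groups, and the double mutant arrays again split, with replicates 1 and 2 below the wild-type range. Foxi1 was at 67.7% of the wild-type level in Vhl mutants (log2 fold change -0.56 ± 0.11, adjusted p = 0.0061), and its log2 fold change was -0.07 in double mutants (95% interval -0.31 to 0.16) and 0.02 in Pbrm1 mutants (-0.21 to 0.26). In double mutants against Vhl mutants it was higher by 0.49 ± 0.11 (adjusted p = 0.011). That call was lost with only the compared groups in the fit (adjusted p = 0.057) and without Vhl mutant replicates 3 and 4 (adjusted p = 0.14). Atp6v1b1, Slc4a1 and Slc26a4, which are among the genes that depend on Foxi1 in the mouse, were lowest in double mutants, where Foxi1 itself was not. Whether their levels follow that of Foxi1 was not tested. The lower level of Foxi1 in Vhl mutants did not pass without wild-type replicates 1 and 2 (adjusted p = 0.13) or Vhl mutant replicates 3 and 4 (adjusted p = 0.092).

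Hmx2, a transcription factor of type B cells, fell in double mutants to 5.95 ± 0.13, against 6.42 ± 0.07 in wild type (log2 fold change -0.46 ± 0.08, adjusted p = 0.00066); the 4 arrays lay at 5.82 to 6.14, below 6.33 to 6.50. Double mutant replicate 4 alone, assumed to vary like the other groups, gave a log2 fold change of -0.28 (adjusted p = 0.24). Dmrt2, a factor of type A cells, had group means of 5.64, 5.53, 5.66 and 5.71 in Vhl mutants, Pbrm1 mutants, double mutants and wild type and no call.

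In double mutants the ammonia channels had the largest falls among the transporters of intercalated cells. Rhcg, which passes ammonia across the apical membrane, measured 8.83, 8.91, 8.56 and 8.72 in Vhl mutants, 9.15, 9.05, 9.04 and 9.09 in Pbrm1 mutants, 7.92, 7.98, 7.70 and 7.79 in double mutants and 9.46, 9.44, 9.39 and 9.67 in wild type. The 4 groups did not overlap at any point. Rhcg was at 59.9% of the wild-type level in Vhl mutants (log2 fold change -0.74 ± 0.08, adjusted p = 2.3e-05), 75.3% in Pbrm1 mutants (-0.41 ± 0.08, adjusted p = 0.0061) and 31.9% in double mutants (-1.65 ± 0.08, adjusted p = 1.1e-10). Rhbg, its basolateral relative, measured 7.96, 8.07, 7.08 and 7.26 in Vhl mutants, 8.34, 8.13, 8.19 and 8.34 in Pbrm1 mutants, 7.11, 7.20, 6.88 and 6.94 in double mutants and 8.41, 8.39, 8.64 and 8.70 in wild type. In Vhl mutants replicates 3 and 4 lay in or near the double mutant range and replicates 1 and 2 just below the Pbrm1 mutant range. Rhbg fell by 0.94 ± 0.16 in Vhl mutants (adjusted p = 0.0016) and by 1.50 ± 0.16 in double mutants (adjusted p = 1.8e-06) on the log2 scale, and its log2 fold change in Pbrm1 mutants was -0.29 ± 0.16 (adjusted p = 0.41). With arrays averaged per description number, the calls of Rhbg in Vhl mutants (adjusted p = 0.061) and Rhcg in Pbrm1 mutants (adjusted p = 0.057) were lost. Both channels are also found in neighbouring cells of the distal nephron.

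Anion exchangers of type A and type B cells were both lower in double mutants. Slc26a4, the apical exchanger of type B cells, measured 7.33, 7.72, 7.38 and 7.63 in Vhl mutants, 8.45, 8.32, 8.04 and 8.01 in Pbrm1 mutants, 7.27, 7.05, 7.09 and 7.03 in double mutants and 8.36, 8.43, 8.36 and 8.34 in wild type. The Vhl and double mutant arrays were below all wild-type arrays, and the Pbrm1 mutant arrays overlapped with wild type. Slc26a4 was at 55.2% of the wild-type level in Vhl mutants (-0.86 ± 0.10 log2, adjusted p = 4.7e-05) and at 41.6% in double mutants (-1.26 ± 0.10, adjusted p = 5.1e-08), with a log2 fold change of -0.17 ± 0.10 in Pbrm1 mutants (adjusted p = 0.47). Slc4a9 (AE4), the basolateral transporter of type B cells, averaged 7.44 ± 0.29 in Vhl mutants, 8.08 ± 0.13 in Pbrm1 mutants, 7.33 ± 0.17 in double mutants and 8.10 ± 0.04 in wild type (SD, n = 4 each). It fell by a like amount in both groups with Vhl deleted, by 0.66 ± 0.12 in Vhl mutants (adjusted p = 0.0026) and 0.76 ± 0.12 in double mutants (adjusted p = 0.00017), and the difference between them was -0.10 (95% interval -0.35 to 0.15). With double mutant replicate 4 as the only double mutant array, the log2 fold change of Slc4a9 against wild type was -0.53 (adjusted p = 0.1). Slc4a8, the sodium-driven exchanger paired with Slc26a4, had a log2 fold change of -0.36 ± 0.11 in double mutants (adjusted p = 0.028), a call lost without wild-type replicate 2 or 4 (adjusted p = 0.076 and 0.072) or double mutant replicate 2 or 4 (adjusted p = 0.06 and 0.11).

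Slc4a1 (AE1), the basolateral exchanger of type A cells, measured 7.32, 7.29, 6.63 and 6.66 in Vhl mutants, 7.43, 7.55, 7.31 and 7.29 in Pbrm1 mutants, 6.19, 6.41, 6.20 and 6.41 in double mutants and 7.15, 7.37, 7.67 and 8.04 in wild type. The double mutant arrays were below all others, and Vhl mutant replicates 1 and 2 lay in the wild-type range. Slc4a1 was at 42.1% of the wild-type level in double mutants (log2 fold change -1.25 ± 0.17, adjusted p = 3.1e-05), and its log2 fold change was -0.58 ± 0.17 in Vhl mutants (adjusted p = 0.058) and -0.17 ± 0.17 in Pbrm1 mutants (adjusted p = 0.72). Red blood cells also carry Slc4a1. Of 10 red blood cell genes, 3 were measured, and Rhag and Kel were below the background level on all arrays. The summed log2 level of the 3 was 9.5 to 9.8 in Vhl mutants, 9.4 to 9.9 in Pbrm1 mutants, 9.5 to 9.8 in double mutants and 9.5 to 9.9 in wild type. None of the 3 exceeded 3.83 on any array. So near the background level, these sums cannot show whether the red blood cell content differed. Aqp6, a vesicle channel of type A cells, did not pass (means 8.57, 8.13, 8.35 and 8.44 in Vhl mutants, Pbrm1 mutants, double mutants and wild type). Of the 7 intercalated cell transporters, 6 fell in double mutants, 4 in Vhl mutants and 1 in Pbrm1 mutants, with medians of -1.25, -0.66 and -0.20.

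Insrr, the alkali-sensing receptor of type B cells, measured 6.00, 6.36, 6.04 and 6.51 in Vhl mutants, 6.94, 6.90, 6.65 and 6.68 in Pbrm1 mutants, 5.93, 5.71, 6.16 and 6.08 in double mutants and 7.20, 7.31, 6.91 and 6.87 in wild type. Vhl and double mutant arrays overlapped and both lay below wild type. Insrr fell by 0.84 ± 0.13 in Vhl mutants (adjusted p = 0.00083) and by 1.10 ± 0.14 in double mutants (adjusted p = 9.5e-06) on the log2 scale. Kit, a receptor of type A cells, averaged 7.12 ± 0.23, 7.15 ± 0.06, 7.15 ± 0.12 and 7.19 ± 0.30 in Vhl, Pbrm1 and double mutants and wild type, with a log2 fold change of -0.05 in double mutants (95% interval -0.31 to 0.21). Mast cells carry Kit as well: of 6 mast cell genes measured, Mcpt4 and Cma1 were below the background level on all arrays. Another, Cpa3, was called higher in double mutants, but its wild-type mean lay below the background level. No mast cell gene exceeded 3.95 on a wild-type array or 4.38 on a double mutant array. Among markers of type A cells, Slc4a1 thus fell in double mutants while Aqp6, Kit and Dmrt2 did not pass, and among those of type B cells Slc26a4, Slc4a9, Slc4a8, Insrr and Hmx2 all fell; whether the types differ was not tested.

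Part of the set was lower still in double mutants than in Vhl mutants. In double mutants against Vhl mutants 10 of 35 members were called, 9 lower and 1, Foxi1, higher (6.35% of all genes, 2.55% lower and 3.80% higher). Rhcg fell by 0.91 ± 0.08 (adjusted p = 4.7e-07), Atp4a by 1.56 ± 0.27 (adjusted p = 0.00082) and Atp6v1b1 by 0.42 ± 0.08 (adjusted p = 0.002). Calls of the other lower members were lost without 1 array or another: Atp6v1g3 without double mutant replicate 4 (adjusted p = 0.062), Hmx2 without double mutant replicate 1 (adjusted p = 0.056), and Atp6v1b2, Slc4a1, Rhbg and Slc26a4 without any of 3 to 5 arrays each (adjusted p from 0.053 to 0.13). Without Vhl mutant replicate 2 or double mutant replicate 4, 6 members were called.

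More members were lower in double mutants than in Pbrm1 mutants. In double mutants against Pbrm1 mutants 15 of 35 members fell and none rose (10.2% of all genes called, 3.37% lower). The falls were led by Atp4a (log2 fold change -1.55 ± 0.27, adjusted p = 0.00045), Rhcg (-1.24 ± 0.08, adjusted p = 3.1e-09), Rhbg (-1.22 ± 0.16, adjusted p = 2.6e-05), Slc26a4 (-1.10 ± 0.10, adjusted p = 3.7e-07) and Slc4a1 (-1.08 ± 0.17, adjusted p = 0.00017). The call of Atp6v0d1 (-0.24) was lost without double mutant replicate 4 (adjusted p = 0.13) or Pbrm1 mutant replicate 1, 2 or 3 (adjusted p = 0.057, 0.076 and 0.055).

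Vhl mutants against Pbrm1 mutants gave 9 calls, 8 lower and 1, Atp12a, higher (7.47% of all genes called, 2.75% lower and 4.71% higher). Slc26a4 (log2 fold change -0.69 ± 0.10, adjusted p = 0.00014), Slc4a9 (-0.64 ± 0.12, adjusted p = 0.0012), Foxi1 (-0.58 ± 0.11, adjusted p = 0.0018) and Insrr (-0.56 ± 0.13, adjusted p = 0.011) kept their calls without any single array. Atp12a was higher by 0.90 ± 0.23 (adjusted p = 0.016), a call lost without Vhl mutant replicate 1 (adjusted p = 0.066). Calls of Atp6v1b1, Atp6v1c2, Rhcg and Rhbg were each lost without 1 to 5 of the arrays (adjusted p from 0.05 to 0.096), and 5 members were called without Vhl mutant replicate 3.

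The interaction sets the double mutant effect against both single effects added together, and it was called for 1 of 35 members, or 2.86%, near the share over all genes (2.63%, 0.852% lower and 1.78% higher). Rhcg was lower in double mutants than the single effects add up to, by 0.50 ± 0.12 on the log2 scale (adjusted p = 0.025), a call lost without wild-type replicate 1 or 2, double mutant replicate 4, Pbrm1 mutant replicate 1 or Vhl mutant replicate 2, with adjusted p between 0.05 and 0.055. For Atp4a the interaction was -0.93 ± 0.38 (adjusted p = 0.22), for Foxi1 0.47 ± 0.16 (adjusted p = 0.13) and for Atp6v1b1 -0.09 ± 0.11 (adjusted p = 0.75).

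Part of the spread within groups followed the description numbers. Between-number differences made up a median of 44.0% of the within-group sum of squares over the 35 members and 37.1% over all genes, where 33.3% is expected if the numbers did not matter. The share was 87.6% for Rhbg, 86.6% for Aqp6, 86.3% for Slc4a1 and 84.0% for Kit. In wild type, replicates 1 and 2 were lower than replicates 3 and 4 for Slc4a1 (7.15 and 7.37 against 7.67 and 8.04), Aqp6 (7.97 and 8.15 against 8.85 and 8.78) and Kit (6.88 and 7.02 against 7.36 and 7.52) and higher for Insrr (7.20 and 7.31 against 6.91 and 6.87). In double mutants, replicate 3 lay nearest to replicate 4, and not to replicate 1 or 2 of its own number, for 16 of 35 members and 39.8% of all genes. With replicate 3 given the number of replicate 4, the median share was 54.9% over the members and 40.1% over all genes. The share became larger for Atp4a (96.1%, against 35.4% as numbered) and Foxi1 (82.9%, against 27.5%), the genes whose split had prompted the change, and smaller for Atp6v0d1 (17.8%, against 62.6%), Atp6v1g1 (38.1%, against 66.4%) and Hmx2 (40.8%, against 61.2%).

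Other intercalated cell genes, of which 10 of 12 were measured, moved unevenly. In double mutants 4 fell and 1 rose, with a median log2 fold change of -0.19: Oxgr1, the receptor for 2-oxoglutarate (-0.98), Bsnd, the chloride channel subunit barttin (-0.75), Hepacam2 (-0.38) and the carbonic anhydrase Car15 (-0.36) fell. In Vhl mutants 3 fell (Car15, -0.68, Bsnd, -0.66, and Oxgr1, -0.36) and none rose, and in Pbrm1 mutants none was called. Markers of neighbouring segments also moved in double mutants: of 12 principal cell genes 6 fell and 2 rose (median -0.27), among them Hsd11b2 (-0.90) and Aqp3 (-0.83), which fell, and Aqp4 (1.48), which rose, and of 9 distal convoluted and connecting tubule genes 5 fell and 1 rose (median -0.36). Of 8 genes of the thick ascending limb 3 fell and 3 rose (median 0.01), and of 12 proximal tubule genes 3 fell and 1 rose (median -0.05).

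Macrophage genes moved the other way in the groups with Vhl deleted. Of 15, 13 rose in Vhl mutants (median 0.68), 1 in Pbrm1 mutants (median -0.11) and 10 in double mutants (median 0.78), and none fell. The summed log2 level of the 15 was 98.9 to 104.2 in Vhl mutants, 88.6 to 89.7 in Pbrm1 mutants, 100.4 to 104.8 in double mutants and 89.1 to 92.9 in wild type. None of the 15 was below the background level on all arrays. The part of other cell types in the change of the members was not tested. On single arrays the median shift of the 7 intercalated cell transporters from the wild-type means was -0.93 to -0.39 in Vhl mutants, -0.33 to -0.05 in Pbrm1 mutants, -1.28 to -1.10 in double mutants and -0.06 to 0.16 in wild type, so the double mutant arrays lay below all others.

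**Figure D4:**
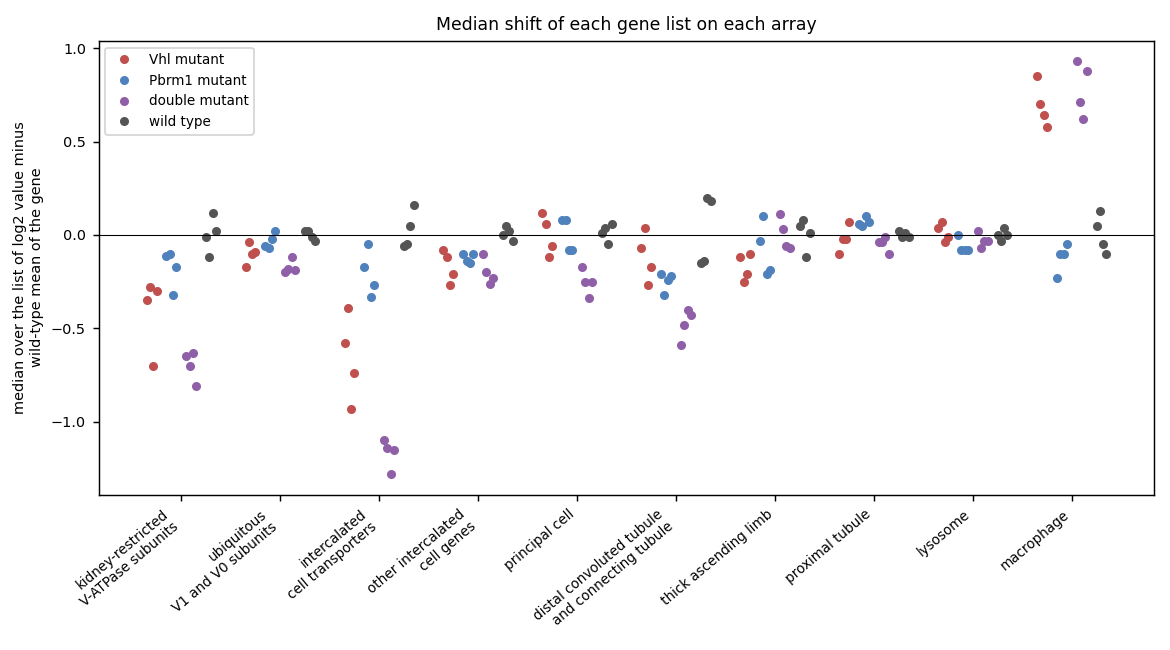
Median over each gene list of the log2 value minus the wild-type mean of the gene (y axis), with 1 point per array, in Vhl mutants, Pbrm1 mutants, double mutants and wild type. The restricted V-ATPase subunits and the intercalated cell transporters are lowest in double mutants (transporters -1.28 to -1.10). The median of the ubiquitous V1 and V0 subunits stays within 0.20 of the wild-type means, though single subunits fell further. Macrophage genes are higher in Vhl and double mutants.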

How the data were processed

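Total RNA of kidney cortex, taken up in Trizol, was run on Affymetrix arrays, per the labels' protocols. The authors deposited log2 values; the submitters' processing notes name RMA (robust multi-array averaging) and the software Affymetrix Expression Console 1.4. RMA brings each array to a common distribution of probe intensities, so values are relative to the array, and the array medians lay between 5.18 and 5.27. The genome build of the array design is not given in the sources used here. Of 41345 probe sets, 23521 had 1 gene symbol in the platform annotation and gave 22180 genes, each read by its probe set of highest mean; 2 members had more than 1. No filter on expression was applied, and 0 columns of values were left unused.

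Groups came from the labels. Models were fitted over all genes with limma 3.58.1 in R 4.3.3 (4 groups, the description number as a random block with an estimated correlation of 0.0838, and a prior variance that follows expression), and p-values were adjusted by Benjamini-Hochberg over the 22180 genes. Pairs of isoforms were compared by exact permutation tests over all divisions of the arrays, without the description number. The 95% intervals took their t quantile from scipy 1.17.1. The isoform pairs, members and lists were chosen with earlier results of these data known, and every member was described; of each other list, at most the 4 called genes of largest change were named. The fit was tested on simulated data in which all arrays were independent. That test did not cover arrays that are related through a shared number. Fits were repeated with the replicate number as a block or with no block, after averaging the arrays of a number or double mutant replicates 2 and 3, over bright genes only, with all probe sets of a gene averaged, after quantile normalization or centring, with no variance trend, on the compared groups alone, without each array or number and, chosen after values were seen, moving double mutant replicate 3 to the number of replicate 4. Tables and figures were made in Python 3.11.15 (matplotlib 3.10.9, numpy 2.4.6, pandas 2.3.3).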

Additional observations from a re-analysis of the deposited data

Results flagged for a closer look

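In 6 of 140 member-by-group sets of 4 arrays, 1 array lay far from the other 3 by Dixon's test at 95%, and chance alone gives about 1 in 20. Atp6v1c2 was 6.81 in Pbrm1 mutant replicate 2, above the others at 6.53 to 6.56. Atp6v0d2 was 7.06 in double mutant replicate 4, below 7.19 to 7.21. Atp6v1f was 4.73 in double mutant replicate 1, below 4.97 to 5.01. Hmx2 was 6.24 in Vhl mutant replicate 2, below 6.30 to 6.31, and 6.20 in Pbrm1 mutant replicate 3, below 6.34 to 6.36. Aqp6 was 8.88 in Vhl mutant replicate 1, above 8.43 to 8.48. For Rhcg the interaction of the 2 deletions was -0.50 on the log2 scale (limma adjusted p = 0.025), the only such call among 35 members (2.86%, against 2.63% of all genes). It passed in 21 of 33 alternatives and not with arrays averaged per description number (adjusted p = 0.12).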

How the results depend on the processing

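Of the member calls, 6 of 9 in Vhl mutants, 0 of 2 in Pbrm1 mutants and 13 of 18 in double mutants against wild type passed under every alternative run, as did 2 of 10 in double against Vhl mutants, 10 of 15 in double against Pbrm1 mutants, 3 of 9 in Vhl against Pbrm1 mutants and 0 of 1 for the interaction; 0 changed direction. With arrays averaged per description number, 0 members were called in Pbrm1 mutants against wild type, 4 in double against Vhl mutants, 5 in Vhl against Pbrm1 mutants and 0 for the interaction. All-gene counts were then 246, 274 and 1729 in Vhl, Pbrm1 and double mutants against wild type, 710 in double against Vhl mutants, 1398 in double against Pbrm1 mutants, 916 in Vhl against Pbrm1 mutants and 99 for the interaction. Without wild-type replicates 1 and 2, all-gene counts were 275, 424 and 1724 in Vhl, Pbrm1 and double mutants and 210 for the interaction (0 members); without wild-type replicates 3 and 4, 577 genes and 1 member were called in Pbrm1 mutants. Without Pbrm1 mutant replicates 1 and 2, 1 member was called in Pbrm1 mutants, 3 in Vhl against Pbrm1 mutants and 0 for the interaction. Without Pbrm1 mutant replicates 3 and 4, counts were 318 genes and 0 members in Pbrm1 mutants, 1329 genes in double against Pbrm1 mutants, 923 genes and 5 members in Vhl against Pbrm1 mutants, and 261 genes and 0 members for the interaction. Without double mutant replicates 1 to 3, which leaves 1 double mutant array, assumed to vary like the other groups, all-gene counts were 1236 against wild type, 493 against Vhl mutants (3 members), 1034 against Pbrm1 mutants and 246 for the interaction. Without Vhl mutant replicates 1 and 2, 6 members were called in double against Vhl mutants and 0 for the interaction, and without replicates 3 and 4, 3 for the interaction. Without the block, the interaction had 884 genes; with no trend, 337 genes and 0 members, and 1 member in Pbrm1 mutants. With only the groups compared, 5 members were called in Pbrm1 mutants and 6 in double against Vhl mutants; with all probe sets of a gene averaged, 2 for the interaction. The cause was not tested, beyond fewer arrays in the fits that leave arrays out.

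Leaving out each array gave, for all genes, 537 to 797 calls in Vhl mutants, 605 to 850 in Pbrm1 mutants and 2016 to 2464 in double mutants against wild type, 1070 to 1345 in double against Vhl mutants, 1781 to 2195 in double against Pbrm1 mutants, 1292 to 1526 in Vhl against Pbrm1 mutants and 374 to 695 for the interaction. For members the ranges were, in that order, 9 to 11, 1 to 3, 16 to 19, 6 to 12, 14 to 17, 5 to 10 and 0 to 2. Among the isoform pairs, the d pair ranged from -0.34 to -0.12 in Vhl mutants (-0.12 without Vhl mutant replicate 3) and -0.19 to -0.09 in Pbrm1 mutants (-0.09 without Pbrm1 mutant replicate 3), the G pair from -0.15 to 0.01 in Pbrm1 mutants, and the a pair from 0.12 to 0.31, 0.03 to 0.21 and -0.13 to 0.04 in Vhl, Pbrm1 and double mutants; in the other 9 every value stayed below 0 and within 1.5 times. Centring moved the share of higher calls over all genes to 36.3% (53.2% as reported) in Vhl mutants against wild type, 43.7% (63.1%) in Vhl against Pbrm1 mutants and 52.5% (66.9%) in double against Pbrm1 mutants. Quantile normalization moved it to 55.8% in the last, 48.0% (59.8%) in double against Vhl mutants and 51.8% (67.6%) for the interaction. Same replicate numbers in different groups did not mark related arrays (correlations of deviations -0.07 to 0.06); with the replicate number as a block, 10, 2 and 18 members were called in Vhl, Pbrm1 and double mutants against wild type.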
